A study of Mus musculus with 12 samples.

Results

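The unfolded protein response genes described here are 10 genes that sense stress in the endoplasmic reticulum or carry out the response to it: the sensors Eif2ak3, Ern1 and Atf6, the transcription factors Atf4, Ddit3 and Xbp1, and the target genes Trib3, Sesn2, Ppp1r15a and Chac1. They were chosen by name, and every probe set that the platform annotation gives to them was read, 26 in all. They are 10 of the 18193 genes that the annotation names for at least 1 probe set. Their RNA levels come from 12 Affymetrix arrays (Mouse Genome 430 2.0) in 4 groups of 3: wild-type (WT) C57BL6 mice on the normal diet, Sgpp2-deficient (KO) C57BL6 mice on the normal diet, WT mice on a high-fat diet (HFD) and KO mice on the HFD. Sgpp2 encodes a phosphatase that sits in the membrane of the endoplasmic reticulum and turns the lipid messenger sphingosine-1-phosphate back into sphingosine. Tissue, age and length of feeding were not among the sample labels, but the series title speaks of pancreatic islets and of stress in the endoplasmic reticulum of their β-cells. The labels did not say whether the deletion was limited to a cell type or whether an array held RNA of 1 animal, so the p-values cover only the spread among these samples, and that spread may be technical.

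The unfolded protein response is set off when unfolded proteins gather in the endoplasmic reticulum, and it has a branch for each sensor. PERK, the product of Eif2ak3, phosphorylates the initiation factor eIF2α, which lowers translation in general but favours that of ATF4. ATF4 then induces CHOP, the product of Ddit3, and further targets. IRE1α, the product of Ern1, splices the Xbp1 mRNA into the form that codes for an active transcription factor, and ATF6 is cut in the Golgi apparatus to release a factor that induces chaperones. β-cells make large amounts of proinsulin in the endoplasmic reticulum, and loss of PERK is known to cause diabetes.

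The promoters of 3 members are shown, since the results turn on these genes: Sesn2 is the gene of the set that differed past the threshold between the genotypes, and Chac1 and Trib3 had their 3 highest values on the same HFD arrays. Each line gives the 250 bases before the RefSeq start site in assembly GRCm38.p6, 5′ to 3′ on the strand of the gene. The windows lie at chr4:132510457-132510706 on the minus strand for Sesn2, chr2:119350992-119351241 on the plus strand for Chac1 and chr2:152344061-152344310 on the minus strand for Trib3. Capitals mark a match, on either strand, to the C/EBP-ATF core TGATGNAAN, which ATF4 and CHOP are known to bind as partners of C/EBP factors.
Sesn2: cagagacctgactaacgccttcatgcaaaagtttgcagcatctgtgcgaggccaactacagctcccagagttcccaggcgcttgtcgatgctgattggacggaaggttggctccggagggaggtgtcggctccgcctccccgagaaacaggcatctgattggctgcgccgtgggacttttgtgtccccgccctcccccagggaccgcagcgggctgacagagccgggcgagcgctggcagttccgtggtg
Chac1: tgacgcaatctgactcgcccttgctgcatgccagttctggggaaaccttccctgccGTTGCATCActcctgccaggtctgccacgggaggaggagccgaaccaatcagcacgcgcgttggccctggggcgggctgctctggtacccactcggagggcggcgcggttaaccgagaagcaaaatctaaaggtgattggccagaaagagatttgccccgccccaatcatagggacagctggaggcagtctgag
Trib3: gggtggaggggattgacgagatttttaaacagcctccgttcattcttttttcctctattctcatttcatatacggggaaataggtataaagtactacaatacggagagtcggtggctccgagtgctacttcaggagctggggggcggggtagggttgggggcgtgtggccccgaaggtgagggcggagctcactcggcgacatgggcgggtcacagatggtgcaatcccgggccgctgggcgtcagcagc

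Of the 10 members, 9 had a promoter in the RefSeq table, and Atf6 had no entry. The match in Chac1 lies at positions −194 to −186 relative to the start and reads as the core on the minus strand. In the window that also holds the 50 bases after the start, Trib3 has a match at positions 13 to 21. These 2 members are the ones that hold the core in that window, and 3.95% of all 32851 promoter windows of that length do. The XBP1 and ATF6 core TGACGTGG was found in 0 of the 9 members and in 0.676% of all windows, and the ER stress response element in 0 of the 9 and in 0.119%. These matches describe the letters of the window and are not measurements of binding.

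Markers were read because the labels named no tissue. All 8 β-cell marker genes with a probe set were above the filter on low values, which asks for a log2 value over 5 on 3 or more arrays, with a mean log2 value of 13.54. The 17 markers of acinar cells, the enzyme-secreting cells around islets, had a mean log2 value of 13.02, and all 17 were above the filter. Sgpp2 itself had lower values in KO, without overlap, with a log2 difference of −0.46 over both diets (SE 0.05, 1.38-fold, limma adjusted p = 0.00327). On the HFD alone the difference was −0.42 and not past the threshold of 0.05 (limma adjusted p = 0.0824). The KO values of this probe set still lay between 10.99 and 11.17. On component 1 of a principal component analysis, with 27.1% of the variance, WT HFD array 2 scored 6.5. The KO arrays lay between 2.4 and 26.2 there and the other WT arrays between −21.1 and −7.5. Its Sgpp2 value, 11.46, lay on the WT side, above the highest KO value of 11.17. Calls of members at the gene level, and counts of members higher or lower, that changed without this array are given both ways. All values are log2 RMA values, so that a difference of 1 is a doubling, and levels are compared between arrays within a probe set and not between genes. The number of arrays limited the precision, with a median standard error (SE) of 0.12 for a log2 difference between groups of 3. In RNA of mixed cells, fewer cells of a type and less RNA per cell cannot be told apart.

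**Figure D1:**
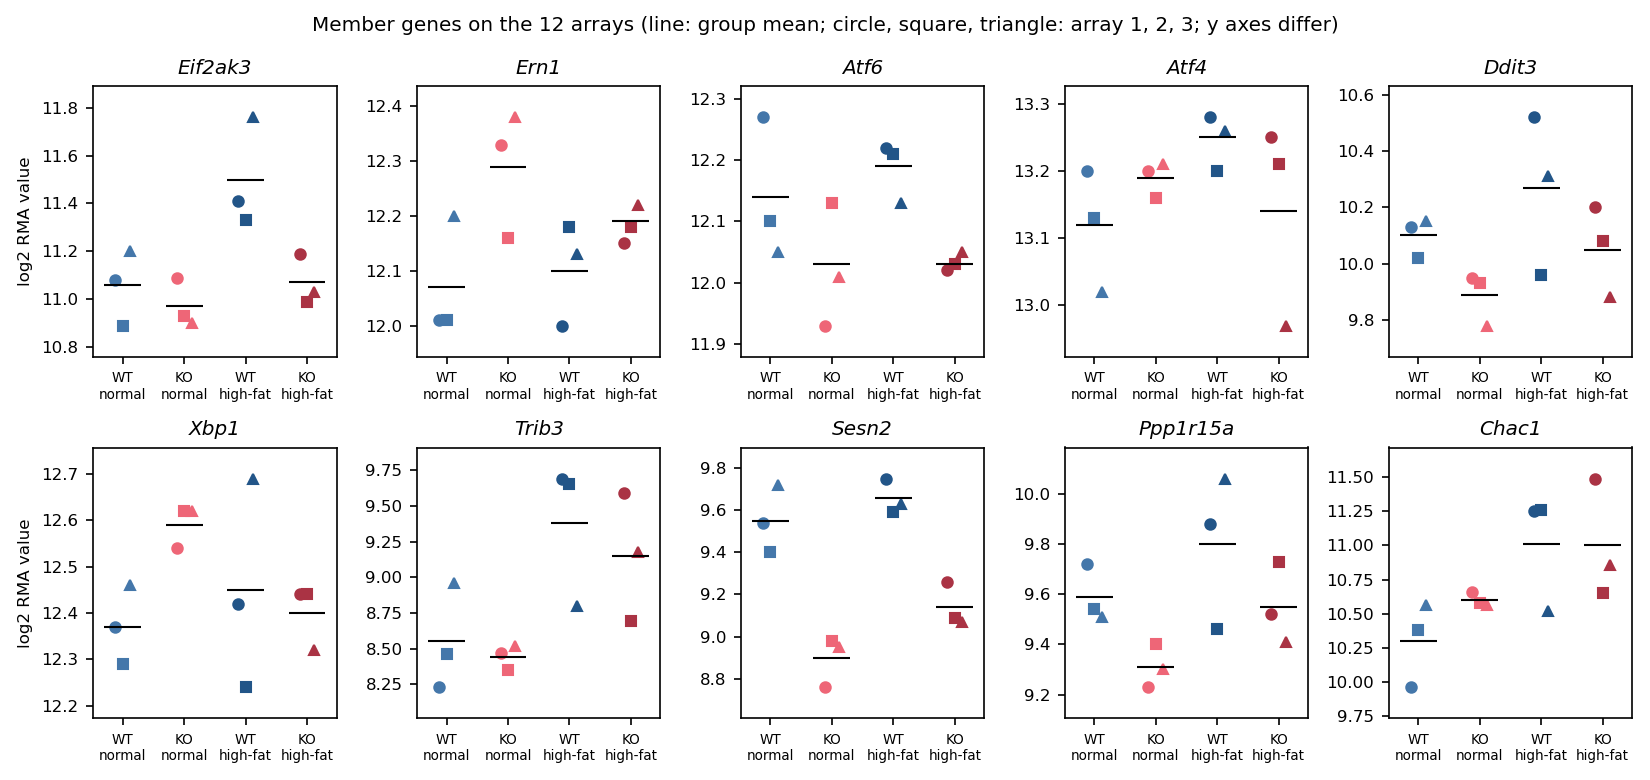
Log2 RMA value (y axis) of each of the 10 genes on each of the 12 arrays, by group (x axis), 1 point per array and a line at the group mean, with an own y range in each panel. Sesn2 lies below the WT values in every KO array, while Trib3 and Chac1 spread most widely among the HFD arrays.

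The probe set with the highest mean of the 12 arrays stood for its gene, and limma was fitted to all 15237 genes above the filter, with Benjamini-Hochberg adjustment over all of them and a threshold of 0.05. All 10 members passed the filter, and the lowest value of any of these 10 probe sets on any array was 8.23. On the normal diet the loss of Sgpp2 went with 1 call among the 10 members, Sesn2, which was lower in KO. In that comparison 128 of all genes, 0.84%, were called. Of the 10 members, 4 had a higher mean in KO and 6 a lower one, with a median difference of −0.10, against −0.05 over all genes. On the HFD 0 members were called, and 2 had an unadjusted p under 0.05, as did 13.4% of all genes. The background there was 4 called genes, 0.0263%. Of the members, 9 had a lower mean in KO on the HFD and 1 a higher one, with a median of −0.19 against −0.03 over all genes. Without WT HFD array 2 these were 8 lower and 2 higher, with a median of −0.15 against −0.04. Chac1 then went from −0.01 to 0.11 and Trib3 from −0.23 to −0.09. Ddit3 went from −0.21 to −0.36, Ppp1r15a from −0.24 to −0.41 and Xbp1 from −0.05 to −0.15. Averaged over the diets, 1 member was called, again Sesn2, where 963 genes were called in all, 6.32%. At an unadjusted p under 0.05 there were 6 members of 10 in that average, and 28.6% of all genes.

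Sesn2 encodes sestrin 2, a stress-induced protein that restrains mTORC1 and whose gene is a target of ATF4 and of p53. Its values on arrays 1, 2 and 3 were 9.54, 9.40 and 9.72 in WT on the normal diet and 8.76, 8.98 and 8.95 in KO on the normal diet. On the HFD they were 9.75, 9.59 and 9.63 in WT and 9.26, 9.09 and 9.07 in KO. Every KO array lay below every WT array, on either diet and across them. The group means were 9.55 ± 0.16 (SD, n = 3) in WT and 8.90 ± 0.12 in KO on the normal diet, and 9.66 ± 0.08 in WT and 9.14 ± 0.10 in KO on the HFD. On the normal diet Sesn2 fell by 0.66 on the log2 scale in KO (SE 0.10, 95% interval −0.88 to −0.43, 1.57-fold lower, limma adjusted p = 0.0272). On the HFD the difference was −0.52 (SE 0.10, unadjusted p = 0.000322, limma adjusted p = 0.108). Averaged over the diets it fell by 0.59 (SE 0.07, 1.50-fold, limma adjusted p = 0.0034). The interaction of genotype and diet for Sesn2, the HFD difference minus the normal diet difference, was 0.14 (SE 0.14, limma adjusted p = 0.998).

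The average over the diets kept Sesn2 past the threshold in all 20 alternatives run, with differences from −0.62 to −0.35 and limma adjusted p from 0.00147 to 0.031. The call on the normal diet alone was less steady. Leaving out a WT array of that diet ended it (limma adjusted p = 0.117, 0.0522 and 0.0992 without array 1, 2 and 3), and so did leaving out a KO array (0.054, 0.0912 and 0.0935). With the replicate block, which pairs arrays by number, the adjusted p of Sesn2 on the normal diet was 0.0544, and in a fit of only the 6 arrays compared it was 0.0659. On the HFD Sesn2 passed the threshold without WT HFD array 2 (difference −0.55, limma adjusted p = 0.0475), where 272 of all genes, 1.79%, passed it.

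Sesn2 had a further probe set, 1451599_at, and it did not repeat the pattern on both diets. Its values were 8.12, 7.87 and 8.22 in WT and 7.78, 7.69 and 7.74 in KO on the normal diet, without overlap. On the HFD they were 8.08, 7.93 and 7.67 in WT and 8.21, 7.87 and 7.93 in KO, with overlap and the higher mean in KO. The differences were −0.34 on the normal diet (limma adjusted p over probe sets 0.178) and 0.11 on the HFD (0.717). In the average over the diets this probe set differed by −0.11 (limma adjusted p over probe sets 0.449). With the mean of both probe sets the difference of Sesn2 on the normal diet was −0.50 (limma adjusted p = 0.0669) and that over both diets −0.35 (0.031). Markers of endothelial cells moved with genotype as well: 0 of 6 had a higher mean in KO on either diet, and in the average over the diets Pecam1 fell by 0.50 (limma adjusted p = 0.0318) and Kdr by 0.23 (limma adjusted p = 0.0448). The mean of the 6 ran from 9.63 to 9.83 in WT and from 9.49 to 9.53 in KO on the normal diet, and from 9.78 to 9.89 in WT and from 9.56 to 9.71 in KO on the HFD. All 6 were above the filter. Of the macrophage markers 5 of 6 were above the filter, 2 of these 5 had a higher mean in KO on the normal diet and 1 on the HFD, with medians of −0.27 and −0.24 and 0 called. Their mean over 6 genes overlapped between the genotypes, from 8.59 to 8.72 in WT and from 8.47 to 8.66 in KO on the normal diet, and from 8.44 to 8.87 in WT and from 8.17 to 8.71 in KO on the HFD. Among hormone cells of the islet, 0 of 3 delta-cell markers had a higher mean in KO on either diet, with medians of −0.29 and −0.14. Of the 8 β-cell markers 2 did on the normal diet and 3 on the HFD, with medians of −0.07 and −0.03. Of both lists 0 were called. The acinar markers, given below, went the other way. The part of any of these lists in the Sesn2 result was not tested.

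**Figure D2:**
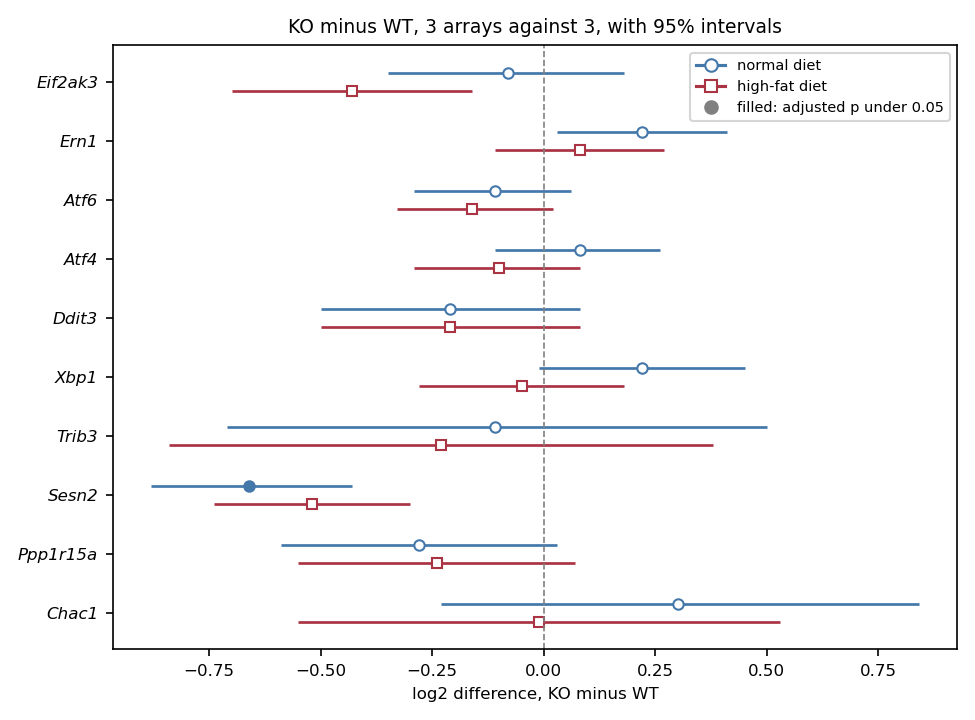
Log2 difference KO minus WT (x axis) of the 10 genes (y axis) with 95% intervals from limma, on the normal diet and on the HFD. The intervals of Sesn2 lie below 0 on both diets. The interval of Eif2ak3 lies below 0 on the HFD, and that of Ern1 lies above 0 on the normal diet.

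Among the sensors, 0 of 3 were called in any of the 7 comparisons. Eif2ak3, which encodes PERK, read 11.08, 10.89 and 11.20 in WT and 11.09, 10.93 and 10.90 in KO on the normal diet. Its HFD values were 11.41, 11.33 and 11.76 in WT and 11.19, 10.99 and 11.03 in KO. The 3 WT HFD arrays were thus above all 9 others. The difference KO minus WT was −0.08 on the normal diet (95% interval −0.35 to 0.18) and −0.43 on the HFD (SE 0.12, 95% interval −0.70 to −0.16, unadjusted p = 0.00449, limma adjusted p = 0.191). The interaction, the HFD difference minus the normal diet difference, was −0.35 (SE 0.17, unadjusted p = 0.0684, limma adjusted p = 0.982). The other probe sets of Eif2ak3 did not share this: on the HFD, 1453505_a_at differed by −0.10 and 1430371_x_at by 0.18.

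Ern1, which encodes the kinase and RNase IRE1α, read 12.01, 12.01 and 12.20 in WT and 12.33, 12.16 and 12.38 in KO on the normal diet. In the HFD groups the means were 12.10 ± 0.09 (SD, n = 3) in WT and 12.19 ± 0.03 in KO. The KO arrays tended to the upper end, with overlap on both diets, and the difference on the normal diet was 0.22 (SE 0.09, unadjusted p = 0.0278, limma adjusted p = 0.183). Its 5 probe sets did not move 1 way: on the normal diet 2 had a higher mean in KO and 3 a lower one, with differences between −0.14 and 0.27.

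Atf6, the sensor that is itself a transcription factor, read between 11.93 and 12.27 on the normal diet, with overlap of the genotypes. On the HFD it read 12.22, 12.21 and 12.13 in WT and 12.02, 12.03 and 12.05 in KO, without overlap. The difference there was −0.16 (SE 0.08, limma adjusted p = 0.409). Probe set 1456021_at differed by −0.34 on the HFD (limma adjusted p over probe sets 0.166) and 1435444_at by 0.12. Atf6 lies on chromosome 1, as does Sgpp2, with 545 protein-coding genes between them, and the other members lie on other chromosomes.

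Among the transcription factors, Atf4 gave readings that depended on the probe set. The probe set that stands for the gene, 1448135_at, read 13.20, 13.13 and 13.02 in WT and 13.20, 13.16 and 13.21 in KO on the normal diet, and 13.28, 13.20 and 13.26 in WT and 13.25, 13.21 and 12.97 in KO on the HFD. The genotypes overlapped on both diets, with differences of 0.08 (95% interval −0.11 to 0.26) and −0.10 (limma adjusted p = 0.607 and 0.602). A further probe set, 1438992_x_at, read 11.31, 11.65 and 11.52 in WT and 12.28, 12.41 and 12.47 in KO on the normal diet. On the HFD it read 11.45, 11.69 and 11.28 in WT and 11.84, 12.11 and 12.12 in KO. Every KO array was above every WT array there, across the diets too.

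In a fit over all 35426 probe sets above the filter, the level of 1438992_x_at rose by 0.89 in KO on the normal diet (SE 0.13, 1.86-fold, limma adjusted p = 0.0188). On the HFD its difference was 0.55 (SE 0.13, limma adjusted p = 0.0858), and averaged over the diets it rose by 0.72 (SE 0.09, limma adjusted p = 0.00252). The average was past the threshold in all 19 alternatives run for it, with differences from 0.67 to 0.77. Its normal diet call ended when WT normal array 1 or 3 was left out (limma adjusted p = 0.0899 and 0.0671) and when KO normal array 2 or 3 was (0.0599 and 0.0853), and a call on the HFD was made without WT HFD array 2 (difference 0.66, limma adjusted p = 0.0341). The suffix _x_at is the manufacturer's mark for a set in which some probes also match other sequences. What 1438992_x_at measures beside Atf4 was not tested. The dimmest set, 1439258_at, read 5.45, 5.49 and 5.60 in WT and 5.87, 5.88 and 6.48 in KO on the normal diet, a difference of 0.56 (limma adjusted p = 0.0901). On the HFD its values were 5.45, 5.56 and 5.44 in WT and 5.50, 5.89 and 5.59 in KO, with overlap. The difference there was 0.18 (limma adjusted p over probe sets 0.626).

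With the mean of its 3 probe sets in place of the highest, Atf4 passed the threshold on the normal diet (difference 0.51, limma adjusted p = 0.046) and in the average over the diets (0.36, 0.0199). Over all 26 probe sets of the 10 genes, all of which passed the filter, those called on the normal diet were 1 higher, Atf4 1438992_x_at, and 1 lower, Sesn2 1425139_at. The background there was 476 probe sets, 1.34%. The same 2 were called in the average over the diets, against a background of 8.39%. On the HFD 0 of 26 were called, against 0.271%.

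**Figure D3:**
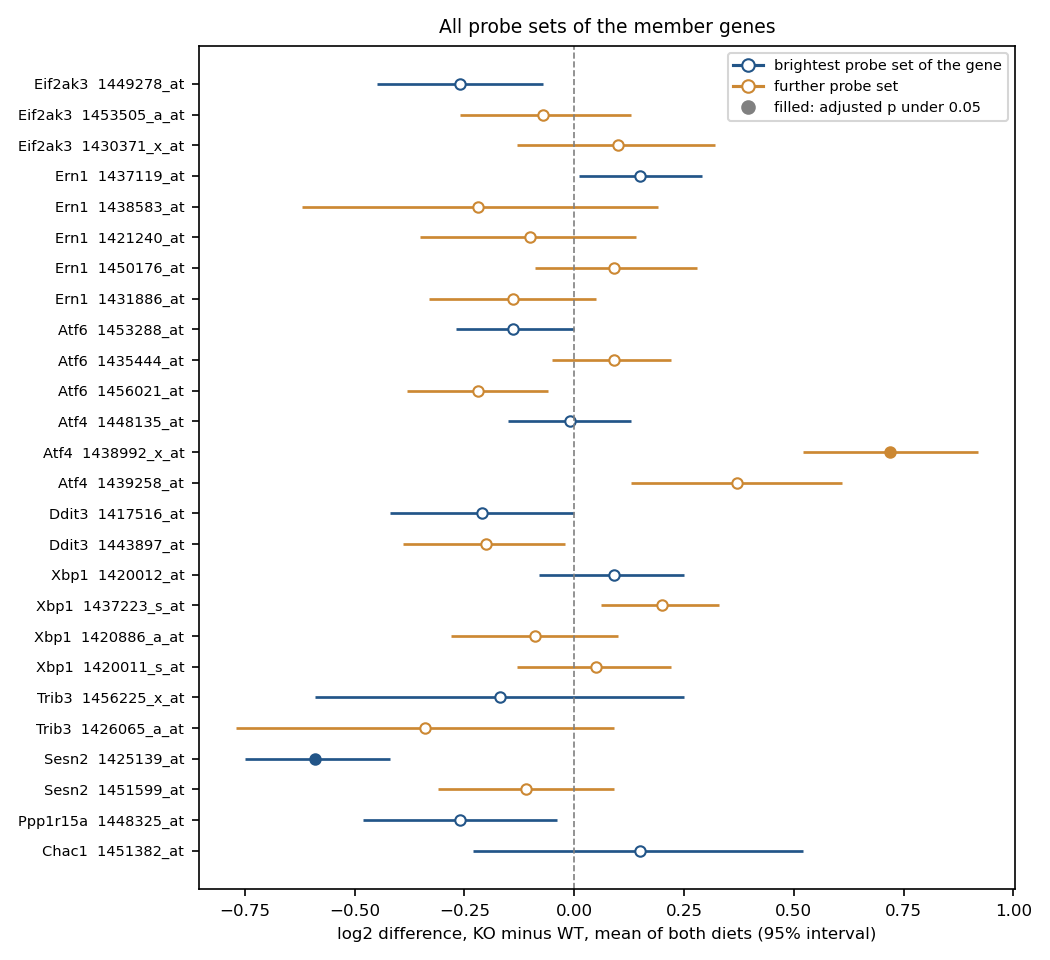
Log2 difference KO minus WT, averaged over both diets (x axis), of each of the 26 probe sets (y axis, grouped by gene). The 95% intervals are from the fit over all probe sets. The probe sets of Eif2ak3, Ern1, Atf6, Atf4 and Xbp1 lie on both sides of 0. Those of Sesn2 lie at −0.59 and −0.11, and those of Ddit3 at −0.21 and −0.20.

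Ddit3, which encodes the factor CHOP linked to cell death under long stress, read 10.13, 10.02 and 10.15 in WT and 9.95, 9.93 and 9.78 in KO on the normal diet, without overlap. Under the HFD it was 10.52, 9.96 and 10.31 in WT and 10.20, 10.08 and 9.88 in KO, with overlap. The difference was −0.21 on either diet (limma adjusted p = 0.358 and 0.497) and −0.21 in the average (SE 0.09, unadjusted p = 0.0448, limma adjusted p = 0.164). WT HFD array 2 was the lowest WT value of the HFD.

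Xbp1, whose mRNA is the substrate of IRE1α, read 12.37, 12.29 and 12.46 in WT and 12.54, 12.62 and 12.62 in KO on the normal diet. Its values under the HFD were 12.42, 12.24 and 12.69 in WT and 12.44, 12.44 and 12.32 in KO. The genotypes did not overlap on the normal diet and did on the HFD. The difference on the normal diet was 0.22 (SE 0.11, 95% interval −0.01 to 0.45, limma adjusted p = 0.249), and on the HFD it was −0.05. Of its 4 probe sets, 1437223_s_at differed by 0.28 on the normal diet (limma adjusted p over probe sets 0.117) and 1420886_a_at by 0.00. These 3′ arrays are not designed to tell spliced from unspliced Xbp1 mRNA. Acinar cells are rich in Xbp1, and the acinar markers moved beside it: 17 of 17 had a higher mean in KO on the normal diet, with a median of 0.26 and 0 called, and 14 of 17 on the HFD, with a median of 0.06. The mean of the 17 lay between 12.82 and 13.11 in WT and between 13.06 and 13.36 in KO on the normal diet, and between 12.64 and 13.11 in WT and between 12.91 and 13.00 in KO on the HFD. All 17 were above the filter. Their part in the Xbp1 values was not tested.

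Of the 10 members, 5 had no overlap between the genotypes on the normal diet, namely Ddit3, Xbp1, Sesn2, Ppp1r15a and Chac1. Over all genes the share without overlap was 34.3%. On the HFD the members without overlap were 3, namely Eif2ak3, Atf6 and Sesn2, against 14.8% of all genes. For Chac1 the nearest arrays of the genotypes were equal to 2 decimals on the normal diet, 10.56 and 10.56.

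Ppp1r15a encodes GADD34, the phosphatase subunit that takes the phosphate off eIF2α again and so ends the block of translation. The normal diet values were 9.72, 9.54 and 9.51 in WT and 9.23, 9.40 and 9.30 in KO, without overlap. The HFD arrays gave 9.88, 9.46 and 10.06 in WT and 9.52, 9.73 and 9.41 in KO, where WT array 2 lay among the KO values. The differences were −0.28 on the normal diet (SE 0.14, limma adjusted p = 0.262), −0.24 on the HFD (limma adjusted p = 0.468) and −0.26 in the average (SE 0.10, unadjusted p = 0.0236, limma adjusted p = 0.119).

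Without WT HFD array 2 the picture of the average over the diets changed for 3 further members. Past the threshold, and lower in KO, were then Sesn2 (difference −0.60, limma adjusted p = 0.00291), Ppp1r15a (−0.35, 0.0198), Ddit3 (−0.29, 0.0321) and Eif2ak3 (−0.30, 0.0413). The number of called genes over the whole array also grew without that array, from 963 to 2500, 16.4% of those tested. The 4 calls of 10 members are to be read against that share.

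Trib3 encodes a pseudokinase that is induced by ATF4 and CHOP and dampens AKT signalling, and Chac1 encodes an enzyme that degrades glutathione and is a target of the same branch. Their differences between the genotypes were small against the spread. For Trib3 they were −0.11 on the normal diet (95% interval −0.71 to 0.50) and −0.23 on the HFD (limma adjusted p = 0.837 and 0.726). For Chac1 they were 0.30 on the normal diet (95% interval −0.23 to 0.84) and −0.01 on the HFD (limma adjusted p = 0.473 and 0.988). Both were higher on the HFD in most arrays, though not past the threshold.

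The probe set that stands for Trib3, 1456225_x_at, has the same suffix as the Atf4 set above. It read 8.23, 8.46 and 8.96 in WT and 8.47, 8.35 and 8.52 in KO on the normal diet. The HFD values were 9.69, 9.65 and 8.80 in WT and 9.59, 8.69 and 9.18 in KO. The KO values did not overlap between the diets, while WT HFD array 3 lay below the highest WT value of the normal diet. The group means were 8.55 ± 0.37 (SD, n = 3) and 9.38 ± 0.51 in WT, and 8.44 ± 0.09 and 9.15 ± 0.45 in KO. HFD minus normal diet was 0.83 in WT (SE 0.28, unadjusted p = 0.0118, limma adjusted p = 0.284) and 0.71 in KO (unadjusted p = 0.0263, limma adjusted p = 0.565). In the average over the genotypes it was 0.77 (SE 0.20, 1.70-fold, unadjusted p = 0.00229, limma adjusted p = 0.148). For a further probe set, 1426065_a_at, it was 0.64 in WT (limma adjusted p over probe sets 0.422) and 0.57 in KO (0.635).

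The values of Chac1 were 9.96, 10.38 and 10.56 in WT and 10.66, 10.58 and 10.56 in KO on the normal diet. Under the HFD they were 11.25, 11.26 and 10.52 in WT and 11.49, 10.65 and 10.86 in KO. The spread among arrays was largest on the HFD, with SDs of 0.42 in WT and 0.44 in KO, against 0.31 and 0.05 on the normal diet. HFD minus normal diet was 0.71 in WT (SE 0.24, limma adjusted p = 0.302), 0.40 in KO (limma adjusted p = 0.778) and 0.56 in the average (SE 0.17, limma adjusted p = 0.203).

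The same HFD arrays were high in both genes. WT HFD arrays 1 and 2 and KO HFD array 1 held the 3 highest values of all 12 arrays in Chac1, in Trib3 and in the further Trib3 probe set, 1426065_a_at. KO HFD array 3 came next in Chac1 and in Trib3. WT HFD array 3 and KO HFD array 2 were the lowest of the HFD arrays in both, and lay within the range of the normal diet. The order within the upper 3 and within these lower arrays differed between the genes. The pattern was noticed in the values and is a description.

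**Figure D4:**
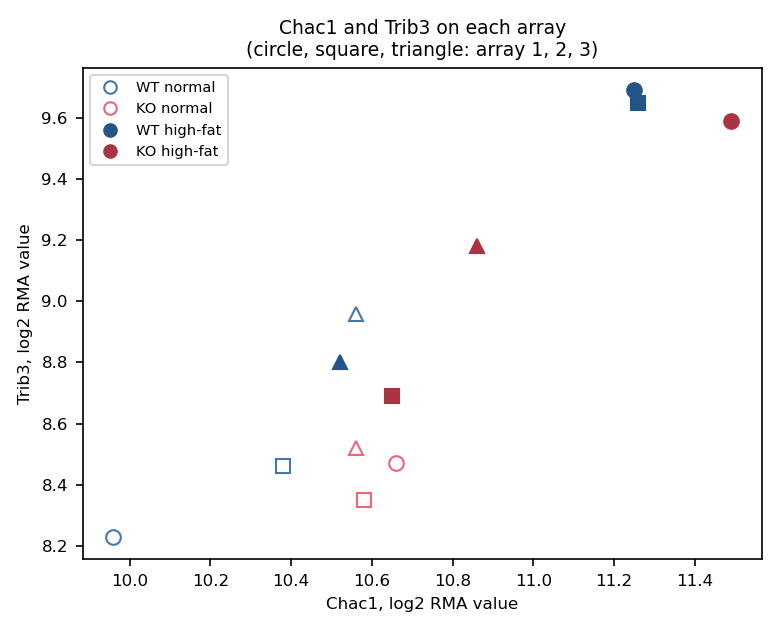
Log2 RMA value of Chac1 (x axis) against that of Trib3 (y axis) on the 12 arrays, 1 point per array, marked by group and number. WT HFD arrays 1 and 2 and KO HFD array 1 lie apart at the upper right, with Chac1 at 11.25 or more and Trib3 at 9.59 or more.

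The diet comparison asks how the members differed between the HFD and the normal diet within a genotype. In WT all 10 members had a higher mean on the HFD, with a median difference of 0.15 against −0.02 over all genes. Without WT HFD array 2 they were 9 of 10, with Ern1 at −0.01 and a median of 0.25 against −0.01. The 7 stromal markers moved in the same comparison: 1 of 7 had a higher mean on the HFD in WT, with a median of −0.41 and 0 called. Their mean ran from 9.02 to 9.55 on the normal diet and from 8.72 to 9.22 on the HFD in WT, all 7 were above the filter, and their part in the members' values was not tested. Of the 10 members, 0 were called by limma and 3 had an unadjusted p under 0.05, as did 11.1% of all genes, and 12 genes, 0.0788%, were called in all, or 0 without WT HFD array 2. The member with the smallest p was Eif2ak3, with a difference of 0.44 (SE 0.12, unadjusted p = 0.00379, limma adjusted p = 0.212). Its other probe sets did not share this: 1453505_a_at differed by 0.02 and 1430371_x_at by −0.22. Eif2ak3 and Atf4 had no overlap between the diets in WT, as did 15.8% of all genes, and Atf4 was equal to 2 decimals at the nearest arrays, 13.20 and 13.20.

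In KO 7 members had a higher mean on the HFD and 3 a lower one, with a median of 0.13 against −0.01. Of them 0 were called and 2 had an unadjusted p under 0.05, as did 7.7% of all genes, and the background was 0 called genes, or 0%. Xbp1, Trib3, Sesn2 and Ppp1r15a had no overlap between the diets in KO, against 13% of all genes. Xbp1 was lower on the HFD there, by −0.19 (limma adjusted p = 0.731), and the others higher. The acinar markers had 0 of 17 higher means on the HFD in KO, with a median of −0.18, and their part in the Xbp1 value was not tested. Sesn2 was 0.24 higher on the HFD in KO (unadjusted p = 0.0352, limma adjusted p = 0.602). Averaged over the genotypes 0 members were called and 5 had an unadjusted p under 0.05, with 13.6% of all genes doing so and 30 genes, 0.197%, called, or 0 without WT HFD array 2. Among the 26 probe sets 0 were called for the diet, against 0.0508% of all probe sets in WT, 0% in KO and 0.178% in the average.

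**Figure D5:**
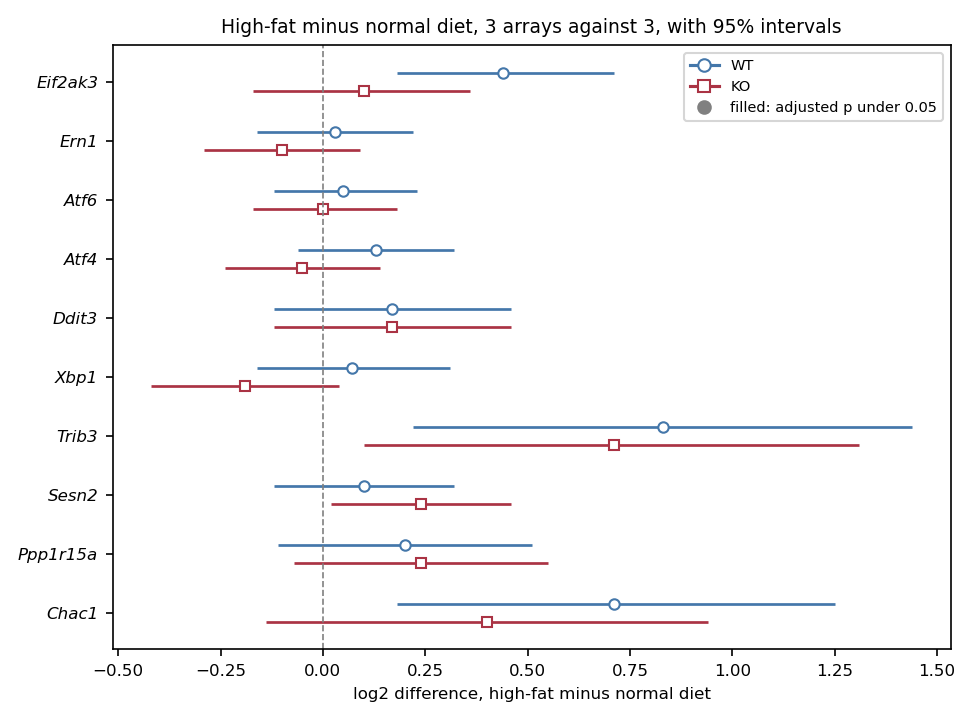
Log2 difference HFD minus normal diet (x axis) of the 10 genes (y axis) with 95% intervals from limma, in WT and in KO. Trib3 and Chac1 have the highest differences, 0.83 and 0.71 in WT and 0.71 and 0.40 in KO, and the widest intervals. The 10 WT differences all lie above 0.

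The interaction asks whether the diet difference was of another size in KO than in WT. It was called in 0 members and in 0 of all genes (0%), with 0 members and 4.97% of all genes at an unadjusted p under 0.05. Its values for the members ran from −0.35 for Eif2ak3 to 0.14 for Sesn2, and 8 of 10 were below 0, with Ddit3 at −0.00. Without WT HFD array 2, 2 members and 6.71% of all genes were at that level, namely Eif2ak3 (−0.43, limma adjusted p = 0.702) and Xbp1 (−0.37, 0.678). Among all probe sets it was called in 0% as well. For the further probe set of Sesn2, 1451599_at, the interaction was 0.45 (unadjusted p = 0.032, limma adjusted p over probe sets 0.982). The genotype effects on the 2 diets are therefore not shown to differ for any member.

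The rest of the pathway was read from 4 lists with 95 gene names, of which 90 genes were tested. The lists cover the other eIF2 kinases with their phosphatase partners and eIF2B (13 tested), further ATF4 and CHOP targets (28), the IRE1 and XBP1 arm (23), and the ATF6 arm with its proteases and chaperones (26). On the normal diet 0 of 90 were called between the genotypes, with 13 at an unadjusted p under 0.05, 14.4% against 22.1% of all genes. On the HFD 0 of 90 were called, with 12 at that level, 13.3% against 13.4%. In the average over the diets 4 of 90 were called, 4.44% against 6.32% of all genes, 2 higher and 2 lower. For the diet, 0 of 90 were called in WT, in KO and in the average. At an unadjusted p under 0.05 were 10 in WT, 11.1% against 11.1% of all genes, and 7 in KO, 7.78% against 7.7%. In the average there were 13, 14.4% against 13.6%. For the interaction 0 were called, with 2 at that level, 2.22% against 4.97%.

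Higher in KO in the average were Derl1, a channel component that draws misfolded proteins out of the endoplasmic reticulum, and Canx, the lectin chaperone calnexin. Derl1 read between 12.48 and 12.65 in WT and between 12.82 and 12.98 in KO over both diets, without overlap, and rose by 0.30 (SE 0.05, limma adjusted p = 0.0104). With the mean of its probe sets the difference of Derl1 was 0.02 (limma adjusted p = 0.862). Canx rose by 0.19 (SE 0.05, limma adjusted p = 0.0448). In the same average 17 of 17 acinar markers had a higher mean in KO, with a median of 0.13 and 0 called. Their part in the Derl1 and Canx values was not tested. Lower were Nck1, an adaptor that helps dephosphorylate eIF2α, by −0.34 (SE 0.08, limma adjusted p = 0.0346), and Aars, the alanyl-tRNA synthetase induced by ATF4, by −0.38 (SE 0.10, limma adjusted p = 0.0448). Of 20 alternatives run, the call held in 19 for Derl1, 5 for Nck1, 4 for Aars and 4 for Canx. The calls of Aars and Canx were lost without any 1 array other than WT HFD array 2, with limma adjusted p up to 0.108 and 0.103, and that of Nck1 without any 1 array other than WT normal array 2 and WT HFD array 2, with limma adjusted p up to 0.0928.

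Other genes of the lists with the smallest p did not pass the threshold. On the normal diet Derl1 differed by 0.32 (limma adjusted p = 0.0582), Eif2b2, a subunit of the exchange factor eIF2B, by −0.17 (0.194), Pck2, the mitochondrial phosphoenolpyruvate carboxykinase and an ATF4 target, by −0.20 (0.129), and Mbtps2, the protease that makes the final cut in ATF6, by 0.32 (0.112). On the HFD Sec24d, a coat protein of vesicles that leave the endoplasmic reticulum, differed by −0.52 (0.142), Creb3l3 by −0.54 (0.158), Nck1 by −0.45 (0.158) and Cebpb, a partner of ATF4 and CHOP on DNA, by −0.84 (0.278). Between the diets in WT, Herpud1, a component of the degradation machinery of the endoplasmic reticulum, was 0.51 higher on the HFD (0.101), Sec24d 0.52 higher (0.13), Nck1 0.35 higher (0.279) and Phgdh, the first enzyme of serine synthesis, 0.50 higher (0.265). In KO, Cth, an enzyme of cysteine synthesis, differed by −0.54 between the diets (0.593), Dnajc10, a disulfide reductase of the endoplasmic reticulum, by −0.24 (0.602), the eIF2 kinase gene Eif2ak1 by −0.14 (0.833) and Derl2 by 0.16 (0.708). Averaged over the genotypes Herpud1 differed by 0.34 (0.0783), Phgdh by 0.44 (0.15), Sec24d by 0.26 (0.194) and Nck1 by 0.23 (0.248). The interaction of Sec24d was −0.52 (unadjusted p = 0.00656, limma adjusted p = 0.854), that of Herpud1 −0.33 (0.964), that of Eif2ak2 0.30 (0.998) and that of Pck2 0.16 (0.99).

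The genes whose profile over the 12 arrays lay nearest to that of Sesn2, by the root mean square difference of the values after each gene's mean was subtracted, were Gp5 (0.107), 4430402I18Rik (0.125) and Pex5 (0.141). The SD of Sesn2 over the arrays was 0.337. This likeness is a description over arrays that share groups.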

How the data were processed

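Biotinylated cRNA from Trizol-extracted total RNA was read on 12 arrays, per the labels' protocols. For every array and probe set the authors deposited a log2 value, made with RMA and Partek 6.6, per the submitters' processing notes. RMA aligns the arrays' probe distributions, which can hide a shift common to most genes; the array medians of the deposited values ran from 7.00 to 7.13. The values run from 2.6 to 15.3.

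Probe sets were named by the platform annotation: 34945 of 45101 with 1 symbol, 932 with several and 9160 unnamed. Genes with log2 values over 5 on 3 or more arrays were tested in limma 3.58.1 (R 4.3.3), with 1 coefficient per group, 8 residual degrees of freedom and 7 comparisons, two-sided. Figures were drawn with matplotlib 3.10.9.

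The members and lists were chosen with earlier results of these data known. Text names all members, the pathway genes called, each list's gene with the smallest p where none was called, and 3 genes nearest to a called member. Deviations of same-numbered KO arrays correlated across the diets (r = 0.29, 0.38 and 0.14), which rests on the values, since no label explains the numbers; other groups did not pair. Alternatives are another scaling, filter, probe-set rule, moderation, block and leaving out each array.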

Additional observations from a re-analysis of the deposited data

How the results depend on the processing

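Every member difference with an unadjusted p under 0.05, or called under any alternative, was followed through up to 22 alternatives, as were the pathway genes called, Sgpp2 and the Atf4 probe set, 32 differences in all. The count of members called on the normal diet, 1, was 0 with the replicate block and 0 in a fit of only the groups compared, and lay between 0 and 1 when an array was left out. On the HFD it lay between 0 and 1 and in the average over the diets between 1 and 4 when an array was left out, and it was 2 there with a gene's probe sets averaged. With them averaged the average difference of Ern1 changed sign, from 0.15 to −0.04, and that of Atf4 from −0.01 to 0.36. The Atf4 value was 0.04 with arrays centred on their median, and lay between −0.04 and 0.03 when an array was left out. Of the 48 differences not followed, 8 changed sign in other settings and 12 on leaving out an array. Counts over all genes moved more. On the normal diet 128 genes were called, against 336 with trend and robust moderation, 69 with a gene's probe sets averaged, 9 with the replicate block and 6 with only the groups compared, and between 2 (without WT normal array 1) and 223 (without WT HFD array 2) when an array was left out. On the HFD 4 were called, against 63 with trend and robust moderation, and between 0 (without KO HFD array 2) and 272 (without WT HFD array 2). In the average 963 were called, against 352 with KO pairs as a random block (correlation 0.368) and 524 with the replicate block, and between 255 (without WT normal array 1) and 2500 (without WT HFD array 2). For the diet, 12 called in WT lay between 0 and 11 and 30 called in the average between 0 and 30 when an array was left out. Centring on the median made 238 calls on the normal diet, 194 higher, where 128 with 73 higher stood before, and 1087 in the average, 878 higher, against 503 of 963. A block for the KO arrays alone, chosen after seeing the data, made 0 calls among the members for the diet in KO, as before. The causes of these changes were not tested.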
